A study of Caenorhabditis elegans with 30 samples.

Results

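The comparison described here is the last interval sampled in wild-type C. elegans held in starvation arrest at the L1 stage, 72 h against 48 h of arrest. It uses 6 of the 30 RNA-seq libraries of the series, taken by their labels: the 3 libraries of strain N2 at 72 h (84 h after bleaching) and the 3 of N2 at 48 h (60 h after bleaching). The question was whether transcript levels had become steady by then or still moved. Embryos released by bleaching hatched in S-basal buffer without food at 20C, and each library came from a pool of whole starved larvae. The irld strain, LRB444, carries irld-39(duk1) and irld-52(duk17), and its 3 libraries at 72 h and 3 at 48 h gave the same interval in a second genotype. N2 libraries at 6, 12 and 24 h served for the earlier steps. All groups were starved, so time since hatching and time without food cannot be told apart. Larvae were pooled whole, and fewer cells of a type and less RNA per cell cannot be told apart either.

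Newly hatched larvae that find no food stop development before any postembryonic cell division and can survive for weeks. Entry into this state depends on reduced insulin-like signalling through the receptor DAF-2 and on the FOXO transcription factor DAF-16, and survival draws on stored fat and glycogen. Feeding restarts growth, cuticle synthesis and the molting programme.

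Worm gene counts were 9137626, 9566631 and 10089245 at 72 h, against 8321683, 10209988 and 9195396 at 48 h. Libraries did not group by time first. The first principal component of the 6 libraries held 56.5% of the variance and set the libraries numbered 1, at 0.57 at 72 h and 0.58 at 48 h, apart from the other 4, at -0.36 to -0.21. In the libraries numbered 1 the pharyngeal myosin gene myo-2 had 156 CPM (counts scaled for library size by TMM) at 72 h and 216 CPM at 48 h. Elsewhere it had 491 to 1162 CPM. The germline precursor markers pgl-1, glh-1, nos-2 and deps-1 were also lowest there, pgl-1 at 4.63 and 4.17 CPM against 11.3 to 15.5 CPM. The pharyngeal gene pha-4 was not set apart, at 53.4 and 56.1 CPM against 49.1 to 78.2 CPM. The second component held 17.6% and separated 72 h (0.17 to 0.50) from 48 h (-0.53 to -0.13). The 48 h library numbered 3 had counts for 23835 genes, against 17891 to 21118 in the other 5, and 1.19% of its reads lay outside annotated genes, against 0.69% to 0.78%. Defining markers of intestine, body wall muscle, pharynx, neurons, hypodermis and germline precursors had counts at both times. The early embryo genes med-1 and end-3 had 2 to 6 counts in all 3 libraries of a time together. Of the other early embryo markers, pes-10 had 29 counts at 72 h and 42 at 48 h, and tbx-37 had 2 and 11.

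No gene passed the test between 72 and 48 h of arrest in N2. edgeR's quasi-likelihood test called 0 of 15508 tested genes (0.0%) at a Benjamini-Hochberg adjusted p of 0.05, and the lowest adjusted p was 0.297. Without adjustment, p was under 0.05 for 825 genes (5.32%), of which 452 were higher (2.91%) and 373 lower (2.41%) at 72 h. The 3 libraries of 72 h did not overlap the 3 of 48 h for 1803 genes (11.6%), 1102 of them higher (7.11%) and 701 lower (4.52%). If libraries of the 2 times were interchangeable, a share of 0.05 would be expected for the first count and 0.1 for the second. Both shares lie near these values, and counts for the lists below stand against them. This expectation leaves out that libraries of the same number varied together, so shares near it do not show that no gene moved. In the same fit, the test of the last 24 h against the 24 h before had 1.99% under 0.05. That of the strain difference had 1.78%. limma-voom also called 0, and DESeq2 called 19, of which 5 were higher. For the 11164 genes with a mean of at least 2 CPM, the 95% interval of the log2 difference lay within 2-fold for 8792 (78.8%) and within 1.5-fold for 4485 (40.2%). Changes smaller than these intervals were not detectable with 3 libraries a time and the spread between them. An estimate beyond 2-fold was found for 91 of the 11164. Directions below follow TMM scaling, under which the median gene lay at 0.01. Scaling to the ERCC spike-in put the median gene at 0.99 and turned 31 of the 53 named genes with a lower estimate to higher, so lower and higher mean relative to the bulk of genes. Over all tested genes 8090 of 15508 had a positive estimate under TMM, and 6486 of the 11164. The spike-in took 0.441% of counts in the 72 h library numbered 1, against 1.79% to 3.20% in the other 5 libraries.

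Earlier steps of N2 arrest had more called genes in the same test. It called 963 genes (6.21%) at 12 h against 6 h, 2263 (14.6%) at 24 h against 12 h and 26 (0.168%) at 48 h against 24 h. Over the first 3 times together, 24 h against 6 h, it called 5296 (34.2%). The same was measured as a distance between 2 libraries, the median absolute log2 difference over tested genes. Between 72 and 48 h it averaged 0.269 across times and 0.269 within a time (exact permutation test, two-sided, p = 1, with 0.1 the smallest p that 3 against 3 libraries allow). Pairs within a time never share a replicate number, whereas some pairs across times do, and same-numbered libraries varied together. Across 72 and 48 h, pairs of the same number averaged 0.222 and pairs of different numbers 0.292. The permutation ignored the numbers, so the equal averages do not show that nothing moved. Between 48 and 24 h the distance averaged 0.320 across times (0.340 for different numbers) and 0.308 within a time. It was 0.401 and 0.291 between 24 and 12 h, and 0.316 and 0.229 between 12 and 6 h. Those last 2 steps each reached the smallest exact permutation p of 0.1, and the step between 48 and 24 h gave p = 1. A gene-wise test of the last 24 h against the 24 h before called 0 (0.0%). Its p before adjustment was under 0.05 for 309 (1.99%), less than the share of 0.05 expected with no difference.

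**Figure D1:**
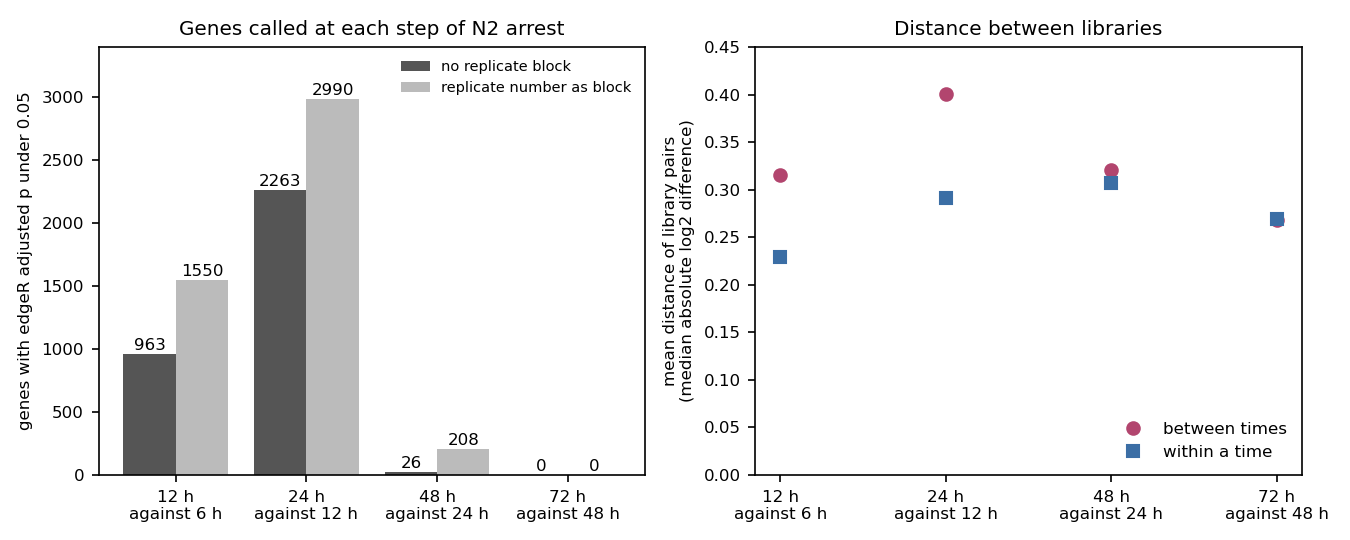
Left, the number of genes with an edgeR adjusted p under 0.05 at each step of N2 arrest, without and with the replicate number as a block in the fit of 30 libraries. Right, the mean distance of library pairs between and within times, where the 2 symbols coincide at 0.269 for 72 h against 48 h. Pairs between times include pairs of the same replicate number, and pairs within a time do not.

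Libraries with the same replicate number varied together, so fits with that number as a block bear on this count. Over all 30 libraries the planned block called 0 genes between 72 and 48 h (unadjusted p under 0.05 for 1027), and between 48 and 24 h it called 208, 140 of them higher. Between 12 and 6 h it called 1550. Blocked fits that were added after seeing the data disagreed. They called 5 genes with a block within each strain over 30 libraries, 9 over the 15 N2 libraries, 196 over the 12 libraries of 48 and 72 h, and 794 (5.12%) over the 6 N2 libraries alone. Those 6 libraries leave 2 residual degrees of freedom, and the spread of each gene was then taken almost entirely from all genes together. On simulated counts that fit also called genes that had been left unchanged, more of them than the unblocked fit of 30 libraries did. How many of the genes changed in the simulation each fit recovered is not given here, so this does not rank the fits. The simulated spread came from a blocked fit of all 30 libraries, not from these 6, so it cannot tell how many of the 794 are false. On the same 6 libraries with the block, DESeq2 called 282 and limma-voom 663. Whether any gene changed over the last 24 h therefore depends on the model, and no gene is described below as changed between 72 and 48 h.

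Over a longer interval, which also holds the step from 24 to 48 h, genes passed the threshold. Their number does not show how much of the movement fell in the last 24 h. For genes of at least 2 CPM the median absolute log2 difference was 0.22 from 24 to 48 h and 0.16 from 48 to 72 h. A comparison of 72 h with 24 h, also added after seeing the data, called 1533 genes (9.89%), 891 higher (5.75%) and 642 lower (4.14%). With library size alone it called 2326, 400 of them higher, and with spike-in scaling 3, so directions are relative to the bulk of genes. The named genes below were picked by their p between 72 and 48 h, which shares the 72 h libraries with this comparison. Its values for them stand beside the shorter interval and are not independent of it. A lack of overlap between 72 and 48 h in genes picked by that p goes with the choice too, and is no separate sign of change.

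Cuticle collagens and epidermal antimicrobial peptides had the lowest medians among the lists with at least 5 tested genes. Cuticle collagens form the extracellular coat of the worm. Of 177 collagen genes 126 had enough counts to be tested, and their median log2 difference between 72 and 48 h was -0.54, against 0.01 for all tested genes. Under spike-in scaling it was 0.24, which is -0.76 relative to the median gene. None passed the adjusted test, and 18 were lower and 0 higher at an unadjusted p under 0.05. Their summed level was 3415, 3568 and 4379.5 CPM at 72 h, against 5621, 6334 and 5659.9 CPM at 48 h. All 3 libraries of 72 h lay below all 3 of 48 h. Without the 48 h library numbered 3 the median relative to the median gene was -0.24, against -0.55 with it. Between 72 and 24 h, 29 of the 126 collagens fell and 2 rose, against 4.14% and 5.75% of all tested genes. Collagens resemble each other in sequence, so reads could be shared between copies.

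The collagen col-42 (WBGene00013489, V:18638484-18639591 in WBcel235, the build of all positions here) had 356, 422 and 473 CPM at 72 h, against 998, 1253 and 915 CPM at 48 h. The groups did not overlap, and the log2 difference was -1.34 ± 0.28 (edgeR adjusted p = 0.297). From 6 to 72 h its level was 1723 ± 507, 1964 ± 522, 2531 ± 222, 1055 ± 176 and 417 ± 58.7 CPM (mean ± SD, 3 libraries each), with the highest mean at 24 h. Between 24 and 72 h it fell by 2.60 on the log2 scale (SE 0.29, edgeR adjusted p = 8.52e-06). col-98 (WBGene00000673, III:13019008-13020226) had 88.7, 117 and 117 CPM at 72 h, against 182, 257 and 209 CPM at 48 h, again without overlap, with a log2 difference of -1.01 ± 0.25 (edgeR adjusted p = 0.357). Its mean was 1019 ± 342 CPM at 6 h. The less abundant col-180 differed by -1.60 ± 0.37 and col-12, with under 6 CPM in each library, by -3.04 ± 0.69.

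mup-4 (WBGene00003497, III:7479680-7489105) encodes a transmembrane protein that anchors the epidermis to the cuticle over muscle. It had 36.9, 23.7 and 41.8 CPM at 72 h, against 81.8, 64.9 and 69.7 CPM at 48 h, and the log2 difference was -1.08 ± 0.24 (edgeR adjusted p = 0.297). Its means at 6, 12, 24, 48 and 72 h were 257 ± 51.5, 199.8 ± 28.8, 143 ± 32.8, 72.1 ± 8.69 and 34.1 ± 9.34 CPM, a descent through every time sampled. It is on the hypodermis and seam list, where it was the single one of 21 tested members with an unadjusted p under 0.05. The list median was -0.06, with no settled direction: relative to the median gene it was -0.21 to 0.058 without single libraries and 0.13 under spike-in scaling. blmp-1 (WBGene00003847, I:10409302-10414773), a transcription factor of developmental timing and molting, had 8.55, 6.32 and 7.74 CPM at 72 h, against 14.1, 12.4 and 10.5 CPM at 48 h (log2 difference -0.71 ± 0.20, edgeR adjusted p = 0.47). Across the 26 tested molting genes the median was -0.18, with 1 lower at an unadjusted p under 0.05. Among 61 cuticlins and astacin proteases, which build and cut the cuticle, it was -0.29 with 7 lower and 0 higher. The median level of these 61 genes was also low, at 1.23 CPM. The astacin nas-9 differed by -0.56 ± 0.20 and nas-11, which a gene on the opposite strand overlaps, by -0.98 ± 0.28.

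Epidermal antimicrobial peptides, the nlp-29 and cnc families that the epidermis makes on infection or wounding, were lower for all 16 of 16 tested members under TMM, with a median of -0.54, whereas 13 were higher under spike-in scaling, at a median of -0.68 relative to the median gene. Of these, 4 had an unadjusted p under 0.05 and 0 passed the adjusted test. Summed, the list had 107.95, 121 and 107 CPM at 72 h, against 165, 159 and 177 CPM at 48 h. nlp-28 had 23.7, 20.4 and 22.9 CPM at 72 h, against 35.6, 32.7 and 29.3 CPM at 48 h (log2 difference -0.54 ± 0.22, edgeR adjusted p = 0.865). The 2 groups did not overlap. At 6, 12, 24, 48 and 72 h the list summed to 917 ± 159.6, 367 ± 26.5, 272 ± 53.9, 167 ± 9.17 and 111.88 ± 7.98 CPM (mean ± SD), most of the decline lying before 24 h. Members of these families resemble each other, so reads could be shared. The median level of the tested members was 3.95 CPM. Of the 16 members 7 fell and 0 rose between 24 and 72 h, against 4.14% and 5.75% of all tested genes.

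**Figure D2:**
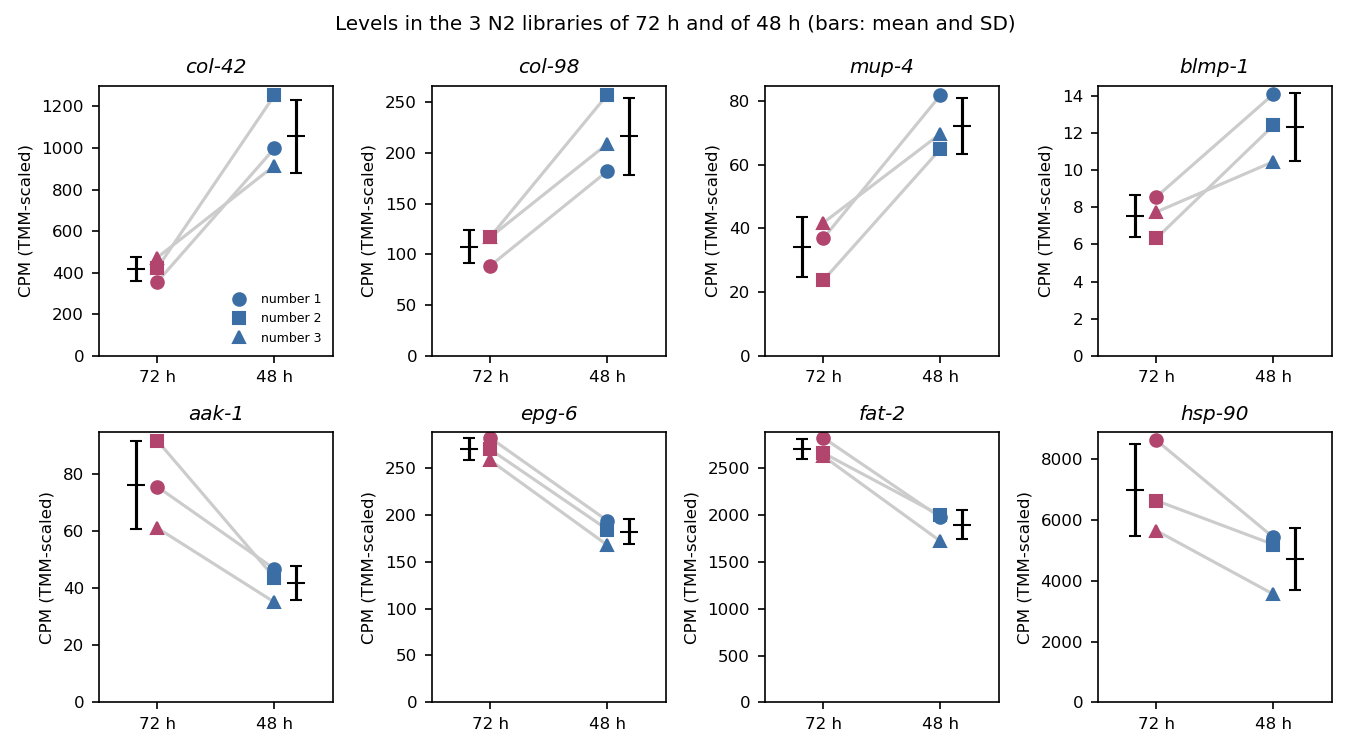
TMM-scaled CPM of 8 genes in each N2 library at 72 h (left) and 48 h (right), with lines joining libraries of the same replicate number and bars for mean and SD. The upper 4 genes were lower at 72 h in all 3 libraries and the lower 4 were higher, as for col-42 at 356 to 473 CPM against 915 to 1253 CPM.

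Cytosolic chaperones, which fold new and damaged proteins, had the highest median among the lists with at least 5 tested genes, 0.28. 18 of 19 tested genes were higher at 72 h (14 with library size alone), 4 with an unadjusted p under 0.05. The list summed to 20106, 16198 and 14735 CPM at 72 h, against 14319, 13708 and 10315 CPM at 48 h. The lowest 72 h library thus stood only just above the highest 48 h library. Without the 48 h library numbered 3 the median relative to the median gene was 0.16, against 0.26 with it, and 0 members kept an unadjusted p under 0.05, as also without the 72 h library numbered 1. hsp-90 (WBGene00000915, V:14684918-14688545), the cytosolic HSP90, which a gene on the opposite strand overlaps, had 8622, 6637 and 5651 CPM at 72 h, against 5426, 5192 and 3557 CPM at 48 h (log2 difference 0.56 ± 0.24, edgeR adjusted p = 0.895). Subunits of the chaperonin that folds actin and tubulin differed by less, with cct-5 at 0.35 ± 0.13, cct-4 at 0.33 ± 0.14 and cct-6 at 0.36 ± 0.15. Between 24 and 72 h 8 of the 19 chaperones rose and 0 fell, against 5.75% and 4.14% of all tested genes.

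Among small heat-shock genes the differences had wide errors. hsp-16.41 had 20.7, 24.6 and 26.9 CPM at 72 h, against 8.48, 8.72 and 7.95 CPM at 48 h, without overlap, but a wide error (log2 difference 1.52 ± 0.73, edgeR adjusted p = 0.935). The related hsp-16.2 had 23.3, 29.3 and 30.6 CPM at 72 h, against 12.8, 12.5 and 17.1 CPM at 48 h (0.97 ± 0.79). These near copies could share reads. hsp-12.6, a target of DAF-16, had 276, 214 and 283 CPM at 72 h, against 316, 271 and 218 CPM at 48 h, and its log2 difference was -0.06 ± 0.41. The list median was 0.036, and single libraries or the scaling turned its sign. In the secretory pathway the ubiquitin ligase gene sel-11 differed by 0.41 ± 0.12 (edgeR adjusted p = 0.512), while the 20 genes of the endoplasmic reticulum stress list had a median of 0.041.

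Genes of autophagy, by which starved cells digest their own parts, included one of the smallest p of the comparison. epg-6 (WBGene00012641, III:10596610-10600188), a phosphoinositide-binding protein needed for autophagosome formation, had 282, 269 and 258 CPM at 72 h, against 193, 184 and 168 CPM at 48 h. The libraries of each time lay close together and the times did not overlap (log2 difference 0.57 ± 0.13, edgeR adjusted p = 0.297). It rose by 1.11 ± 0.13 between 24 and 72 h (edgeR adjusted p = 8.52e-06). lgg-2, a homologue of the autophagosome protein LC3, had 698, 703 and 624 CPM at 72 h, against 577, 496 and 454 CPM at 48 h (0.41 ± 0.14, edgeR adjusted p = 0.692). Of 53 genes of lysosome, autophagy and vacuolar ATPase 7 were higher and 0 lower at an unadjusted p under 0.05, around a median of 0.12. Without single libraries the median was 0.036 to 0.14 relative to the median gene. Without the 48 h library numbered 3, or the 72 h library numbered 1, 2 were higher. Proteasome genes had a median of 0.10 (0.023 to 0.14 relative to the median gene without single libraries), with rpt-5, an ATPase of the regulatory particle, at 0.25 ± 0.10.

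Translation genes lay slightly above the median gene. All 79 of 79 tested cytosolic ribosomal protein genes had a positive estimate, with a median of 0.14, yet 0 had an unadjusted p under 0.05, and with library size alone 59 were positive. The interval of every one lay within 2-fold. Translation factors had a median of 0.17, 4 higher and 0 lower at an unadjusted p under 0.05, and the 4 were subunits of initiation factor 3. eif-3.I had 228, 226 and 191 CPM at 72 h, against 171, 174 and 147 CPM at 48 h (0.39 ± 0.11, edgeR adjusted p = 0.47), without overlap. eif-3.G differed by 0.36 ± 0.12, eif-3.D by 0.33 ± 0.12 and eif-3.B by 0.36 ± 0.17. nst-1, a nucleolar GTPase of ribosome assembly, had 2374, 1911 and 1841 CPM at 72 h, against 1756, 1501 and 1369 CPM at 48 h (0.41 ± 0.15). In the longer comparison of 72 h with 24 h 15 of 43 translation factors rose and 1 fell, against 5.75% and 4.14% of all tested genes.

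Insulin signalling, the pathway that controls this arrest, had small differences. daf-2, the insulin receptor gene (WBGene00000898, III:2994514-3040846), had 620.2, 402 and 454 CPM at 72 h, against 556, 419 and 374 CPM at 48 h, with overlap (0.13 ± 0.21). daf-16 (WBGene00000912, I:10750498-10776703) had 322, 285 and 257 CPM at 72 h, against 271, 272 and 212 CPM at 48 h (0.20 ± 0.19). Of 30 pathway genes 1 was higher (the phosphatase gene ptp-1, 0.32 ± 0.13) and 1 lower (the kinase gene pdk-1, -0.39 ± 0.18) at an unadjusted p under 0.05. Over all tested genes those shares were 2.91% and 2.41%. Among DAF-16 targets, sod-3, a mitochondrial superoxide dismutase, had 2.52, 4.74 and 5.75 CPM at 72 h, against 7.33, 8.94 and 6.21 CPM at 48 h (-0.78 ± 0.34, edgeR adjusted p = 0.896). Its times did not overlap, and genes on the opposite strand overlap it, so reads could be shared if strand was not used. At 6, 12, 24, 48 and 72 h it had 4.33 ± 1.05, 8.41 ± 1.98, 13.8 ± 2.37, 7.49 ± 1.37 and 4.34 ± 1.65 CPM, highest at 24 h. The metallothionein mtl-1 differed by 0.061 ± 0.32. The medians were -0.092 for 33 DAF-16-activated and -0.21 for 13 DAF-16-repressed genes. Among the activated, 3 were higher and 1 lower at an unadjusted p under 0.05. The repressed median was -0.55 relative to the median gene without the 48 h library numbered 1. The insulin-like peptide ins-20 had 34.6, 7.05 and 8.91 CPM at 72 h, against 7.76, 3.46 and 4.57 CPM at 48 h (1.68 ± 0.61), the library numbered 1 of each time being the highest.

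A catalytic subunit of AMP-activated kinase, the sensor of low cellular energy, was among the larger differences. aak-1 (WBGene00019801, III:8756990-8761090) had 75.7, 91.9 and 61.2 CPM at 72 h, against 46.9, 43.8 and 35.2 CPM at 48 h. All 72 h values were above all 48 h values (log2 difference 0.86 ± 0.22, edgeR adjusted p = 0.374). Its means from 6 to 72 h were 9.47 ± 0.714, 14.6 ± 1.68, 20.9 ± 2.37, 41.9 ± 6.06 and 76.3 ± 15.3 CPM, higher at each later time, and it rose by 1.87 ± 0.22 between 24 and 72 h (edgeR adjusted p = 1.20e-05). A gene on the opposite strand overlaps it. The 25 genes of AMPK and TOR signalling had a median of 0.08 (0.019 to 0.11 relative to the median gene without single libraries), and the regulatory subunit aakb-2 differed by 0.23 ± 0.19.

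Genes of fatty acid desaturation and elongation differed in both directions. fat-2 (WBGene00001394, IV:13323873-13326395), a desaturase of polyunsaturated fatty acid synthesis, had 2829, 2665 and 2632 CPM at 72 h, against 1978, 1998 and 1722 CPM at 48 h (log2 difference 0.51 ± 0.16, edgeR adjusted p = 0.572), without overlap, and rose by 1.43 ± 0.16 between 24 and 72 h (edgeR adjusted p = 8.38e-06). The stearoyl-CoA desaturase gene fat-6 had 1841, 1116 and 1067 CPM at 72 h, against 1142, 821 and 671 CPM at 48 h, with overlap (0.61 ± 0.48). The elongase gene elo-2 lay the other way, at 34.9, 26.3 and 32.02 CPM at 72 h, against 50.3, 46.6 and 40.3 CPM at 48 h (-0.56 ± 0.22), and elo-5 was at or under 1.0 CPM in every 72 h library (-2.26 ± 0.65). The list median was -0.039, and -0.13 to 0.040 relative to the median gene without single libraries. For 69 genes of fatty acid activation and oxidation it was -0.10, with 2 higher and 4 lower at an unadjusted p under 0.05. Central carbon lists had medians close to the median gene, whose sign turned under spike-in scaling. The tricarboxylic acid cycle list had a median of 0.0064, with citrate synthase, cts-1, at 0.31 ± 0.12, and the median was -0.059 to 0.0098 relative to the median gene without single libraries. The glyoxylate cycle list had -0.10, with icl-1 at -0.52 ± 0.80, and trehalose and glycerol genes had -0.046, with the trehalose synthase gene tps-2 at 0.39 ± 0.14. Without single libraries these last 2 medians were -0.11 to -0.0044 and -0.088 to 0.0049 relative to the median gene. Although 4 of the 6 tested glyoxylate cycle genes had lower estimates, the summed level of that list was higher at 72 h. It was 15949 to 17619 CPM at 72 h, against 12874.5 to 15671.5 CPM at 48 h.

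Neuropeptide genes, which encode secreted neuronal signals, were mostly higher. 29 of 30 FMRFamide-like genes and 52 of 62 neuropeptide-like genes had positive estimates under TMM, against 8090 of all 15508 genes (25 and 47 of the list members with library size alone), with medians of 0.24 and 0.26. Few reached an unadjusted p under 0.05: 1 and 2 were higher, and 0 and 1 lower. nlp-59 had 199.9, 161 and 135 CPM at 72 h, against 133, 133 and 102 CPM at 48 h (0.43 ± 0.17) and nlp-80 had 256, 255 and 203 CPM at 72 h, against 179, 214 and 139 CPM at 48 h (0.43 ± 0.19). flp-5 differed by 0.39 ± 0.18. Pan-neuronal genes had a median of 0.10, below both peptide lists. Without the 72 h library numbered 2 or the 48 h library numbered 1 the FMRFamide-like median relative to the median gene was 0.13 or 0.13, against 0.22 with all. From 24 to 72 h 15 FMRFamide-like and 18 neuropeptide-like genes rose and 0 fell, against 5.75% and 4.14% of all tested genes.

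Muscle, pharynx and gut lists lay below the median gene under TMM with all libraries. Pharyngeal genes had a median of -0.17, 0 of 19 with an unadjusted p under 0.05, and pharyngeal cuticle genes -0.40 (-0.086 in irld). Without single libraries the pharyngeal median was -0.69 to 0.19 and the pharyngeal cuticle median -1.11 to -0.030 relative to the median gene, so both turn on single libraries. Pharyngeal levels were low in the libraries numbered 1. Sarcomere genes had a median of -0.11. At an unadjusted p under 0.05, 2.41% of all tested genes were lower, against 1 of 44 sarcomere genes (pat-12, a muscle attachment gene, -0.53 ± 0.23). The summed level overlapped, at 27205, 25883 and 29859.9 CPM at 72 h, against 36134, 33328 and 27415 CPM at 48 h, and the median relative to the median gene was -0.22 without the 72 h library numbered 3 and -0.081 without the one numbered 1. Intestinal genes had a median of -0.16, -0.034 relative to the median gene without the 48 h library numbered 1. ifc-1, an intestinal intermediate filament, had 70.1, 133 and 189.9 CPM at 72 h, against 205, 212 and 251 CPM at 48 h (-0.77 ± 0.31). Glutathione S-transferases had -0.25, with gst-13 at -0.51 ± 0.17. Of 212 nuclear hormone receptors 10 were higher and 2 lower at an unadjusted p under 0.05, against 2.91% and 2.41% of all tested genes. nhr-17 had 26.2, 31.5 and 24.7 CPM at 72 h, against 16.7, 19.4 and 17.2 CPM at 48 h (0.63 ± 0.19), and nhr-100 differed by 0.46 ± 0.17. lin-28, a timing gene, had 295, 273 and 257 CPM at 72 h, against 255, 245 and 209 CPM at 48 h (0.22 ± 0.14). Another gene also overlaps eif-3.D, pdk-1, elo-5, cts-1, tps-2, pat-12, nhr-17 and lin-28, so their reads could be shared.

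**Figure D3:**
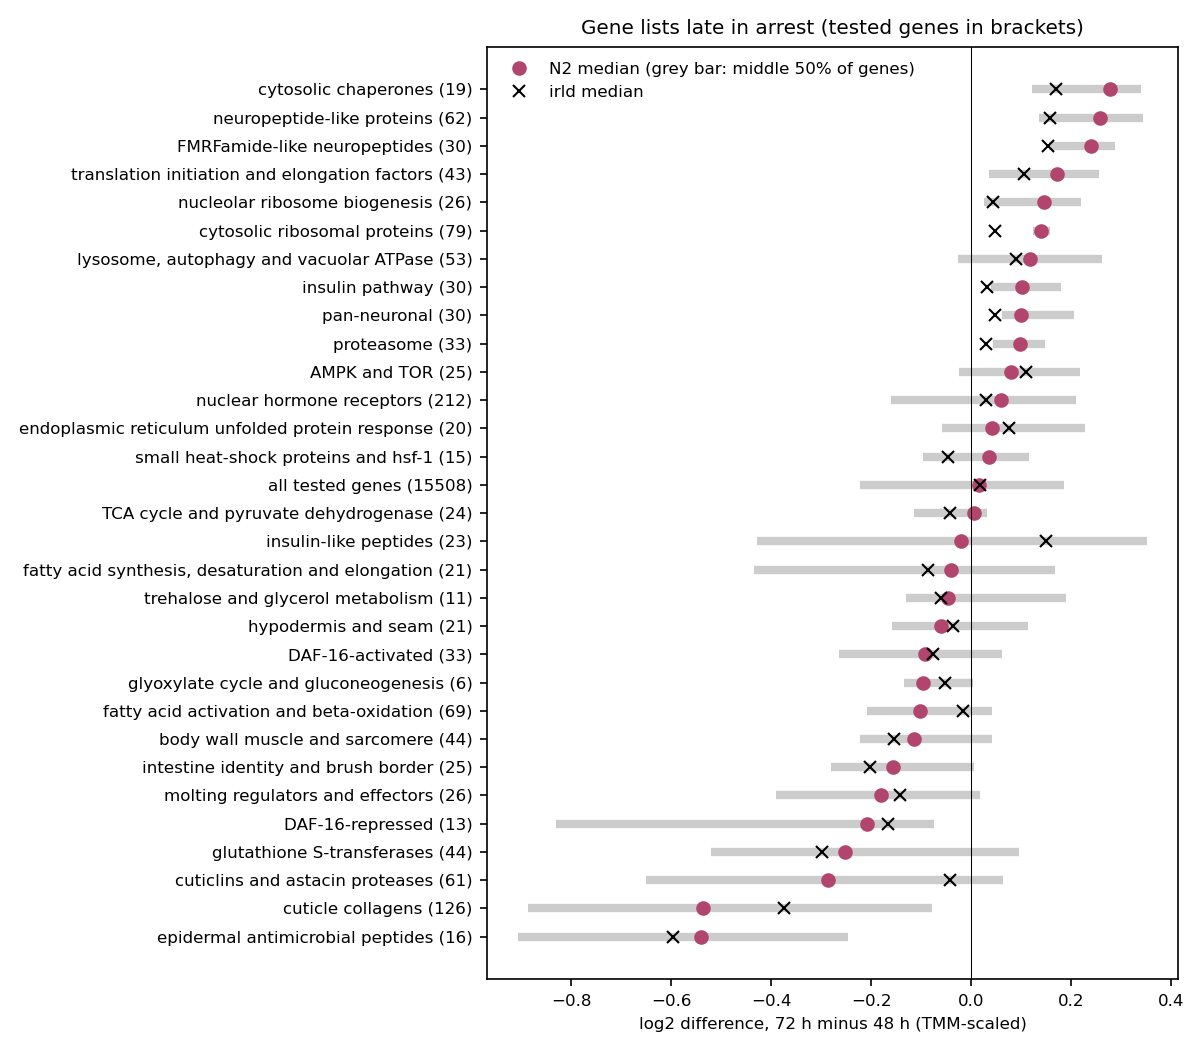
Median log2 difference between 72 and 48 h in N2 (points, with the middle 50% of genes) and in irld (crosses) for each gene list, with the number of tested genes in brackets. Antimicrobial peptides and collagens lie lowest in N2, both at -0.54, and chaperones highest at 0.28.

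The summed levels over the 5 times place these differences in the course of arrest. Collagens summed to 16963 ± 2089.7, 10206 ± 1538, 10083 ± 1484, 5872 ± 401 and 3788 ± 518 CPM at 6, 12, 24, 48 and 72 h (mean ± SD). Chaperones summed to 6784 ± 343, 8957 ± 1747, 9908 ± 2537, 12781 ± 2157 and 17013 ± 2777 CPM at the same times. Translation factors summed to 26193 ± 1507, 32107 ± 1212, 46956 ± 3681, 57980.2 ± 4606 and 67396 ± 3597 CPM and neuropeptide-like genes to 1639 ± 9.27, 1808 ± 271, 2614 ± 439.9, 3481 ± 437 and 4212 ± 607 CPM. The last 3 lists had a higher mean at every later time, and collagens a lower one. The total rose as well. All tested genes summed to 1.28e+06, 1.16e+06 and 1.18e+06 CPM at 72 h, against 1.20e+06, 1.14e+06 and 998385 CPM at 48 h. As for chaperones, the 72 h library numbered 1 was highest and the 48 h library numbered 3 lowest. TMM factors were 1.18, 1.16 and 1.24 at 6 h, against 0.781, 0.861 and 0.846 at 72 h, and a lower factor raises every CPM. Sarcomere genes summed to 30041 ± 4848, 32949.5 ± 2933, 33949.9 ± 6098, 32292 ± 4451 and 27649 ± 2025 CPM and had no such order.

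**Figure D4:**
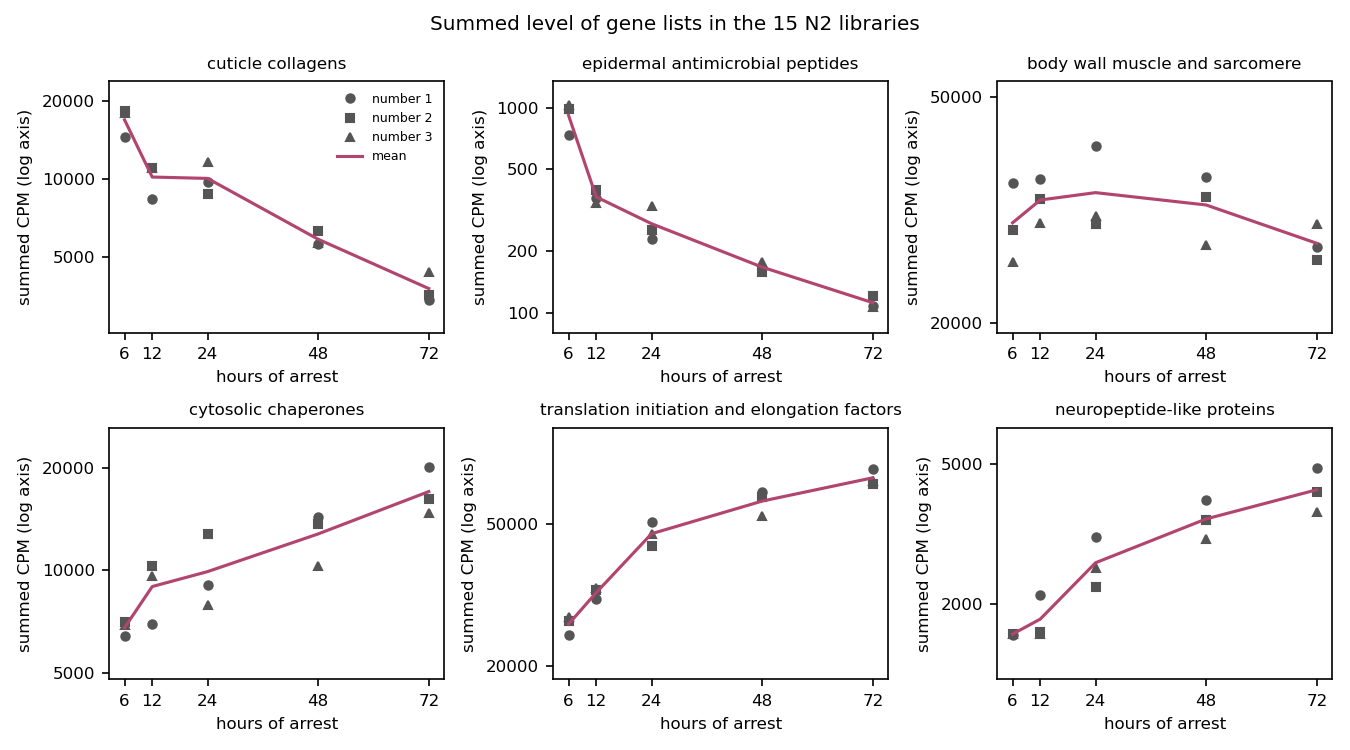
Summed CPM of 6 gene lists at 6, 12, 24, 48 and 72 h of arrest in the 15 N2 libraries, on a log axis, with points for libraries and a line for the mean. Antimicrobial peptides drop most before 24 h, and collagens and chaperones still differ in mean between 48 and 72 h.

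The irld double mutant covered the same interval in libraries that enter neither side of the N2 contrast. All 30 libraries were fitted together, so both contrasts share each gene's estimate of spread and the filter on low counts, and a p under 0.05 in both strains is not independent in that respect. There edgeR called 0 (0.0%), p before adjustment being under 0.05 for 657 (4.24%). The difference between strains was called for 0 (0.0%), where 276 (1.78%) had p under 0.05 before adjustment. Of the 627 N2 genes with an unadjusted p under 0.05 and a mean CPM of at least 2, 556 (88.7%) had the same sign in irld, against 66.9% of all 11164 genes at that level. In irld 175 of the 627 also had an unadjusted p under 0.05 with the same sign, and 0 with the opposite sign. Pearson's r across the 627 genes was 0.72, as a description over genes that are not independent. Replicate numbers are shared by the strains, but same-numbered N2 and irld libraries did not deviate together throughout, with r of -0.20 to 0.21. col-42 differed by -1.55 ± 0.28 in irld, mup-4 by -0.74 ± 0.23, epg-6 by 0.62 ± 0.13, aak-1 by 0.59 ± 0.21, fat-2 by 0.51 ± 0.16 and hsp-90 by 0.50 ± 0.24. The irld medians were -0.37 for collagens, -0.60 for antimicrobial peptides and 0.17 for chaperones. Cuticlins and astacins, at -0.042 in irld, and ribosomal proteins, at 0.047, were nearer 0 there.

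**Figure D5:**
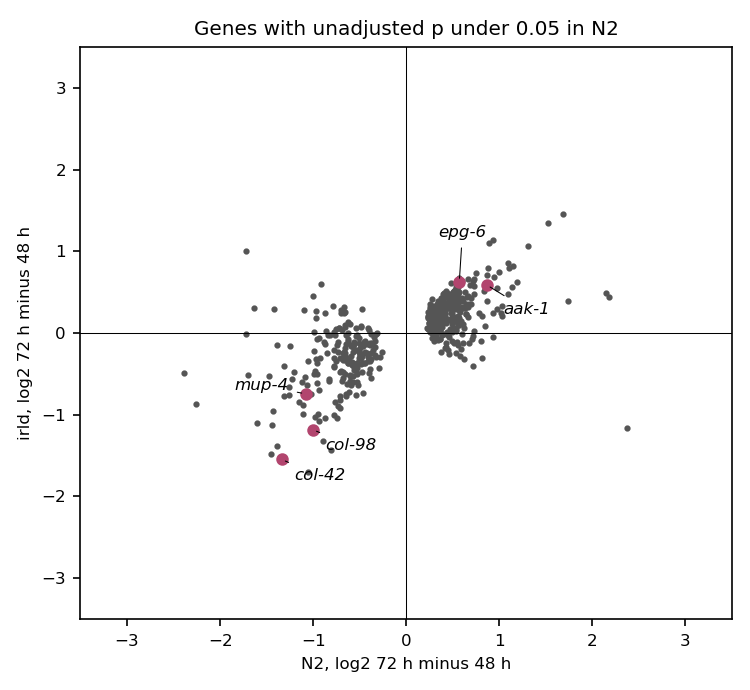
Log2 difference between 72 and 48 h in N2 (horizontal) and irld (vertical) for the 627 genes with an unadjusted p under 0.05 in N2 and a mean CPM of at least 2, 1 of which lies outside the axes. For 556 of them both strains lie on the same side of 0.

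The change from 6 to 24 h in N2 shares no library with the last interval. Of the same 627 genes 494 (78.8%) had the sign of that early change, against 61.3% of all 11164 genes, with Pearson's r of 0.50 across the 627. Among the 359 of them that the test called between 24 and 6 h, 321 (89.4%) had the same sign, against 70.3% of all 5296 genes called between 24 and 6 h. These are shares of genes chosen by their p in the late interval.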

How the data were processed

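Libraries were polyA-selected from 50 ng of total RNA, with ERCC spike-in added in proportion to total RNA, per the labels' protocols. The authors deposited raw counts per gene. Per the submitters' processing notes, Bowtie 1.2.2, HTSeq 0.11.2 and edgeR 3.24.4 were used. Counting settings, strand use included, are not given in the sources used here. Alignments were unspliced, and the genome release was WormBase WS273, per the authors' text sheet. The deposited CPM values and strain tests were not used. Positions were read from Ensembl 115 (WBcel235), and 44053 of 46911 genes had a symbol.

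Counts of all 30 libraries were fitted with edgeR 4.0.16 (R 4.3.3): TMM scaling, filterByExpr by group (15508 genes kept), robust quasi-likelihood F-tests, 1 coefficient per strain and time, Benjamini-Hochberg adjustment. Each log2 difference has its SE. DESeq2 1.42.0 and limma-voom (limma 3.58.1) were alternatives, with other scalings, filters, blocks and left-out libraries. The unblocked fit and the blocked fits of 6 and 12 libraries were tested on simulated counts, with spread taken from a blocked fit of 30 libraries. There both blocked fits called more unchanged genes than the unblocked one, and recovery of the changed genes is not given here. Libraries held 7563687 to 19815884 counts. Replicates are biological per the labels, and they differed beyond sampling noise (chi-square per gene 7.40 to 22.2). The replicate numbers, taken from the titles, pair the N2 libraries of 72 and 48 h: deviations from group means correlated at 0.74, 0.44 and 0.44 (irld 0.53, 0.19 and 0.59). Different numbers gave -0.58 to 0.37 in N2, highest between numbers 3 and 2, and -0.54 to 0.24 in irld, where 72 h number 1 with 48 h number 2 exceeded the same-number value for 2. In N2 each value of number 1 with another number was negative.

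The comparison, gene lists (75) and tests were chosen with earlier results of these data known. The comparison with 24 h and all but 1 of the blocked fits were added after seeing the data. The rule for named genes would have taken the 12 largest called rises and falls, of which there were 0. It further fixed daf-16, daf-2, hsp-12.6, sod-3, mtl-1, icl-1, fat-6, lin-28 and blmp-1, and added, for each list described, its 4 lowest p at most.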

Additional observations from a re-analysis of the deposited data

How the results depend on the processing

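Between 72 and 48 h in N2, edgeR called 0 genes under each planned scaling and filter, in the 15 N2 libraries alone, with the replicate block and without each library in turn. The 6 libraries alone gave 4 and DESeq2 19. Of 15 blocked fits 1 was planned, and the others, chosen after seeing the data, ranged from 0 to 822. They gave 5 (30 libraries, block within strain), 9 (15 N2 libraries), 196 (12 libraries), 282 (DESeq2, 6 libraries), 663 (limma-voom) and 794 (edgeR, 6 libraries). With the last block, DESeq2 size factors gave 795, upper quartile scaling 822, library size alone 695, a filter on the 6 libraries 606 and spike-in scaling 0. Leaving out both libraries of 1 number gave 270 (number 1), 455 (number 2) and 627 (number 3). The cause of these differences was not tested.

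The irld interval went to 4 calls with DESeq2, and with a replicate block to 57 (6 libraries) and 97 (12 libraries). For 48 h against 24 h the 26 calls became 13 (15 N2 libraries alone), 16 (no filter), 56 (upper quartile), 63 (library size), 0 (spike-in), 330 (DESeq2), and with the replicate block 208, 401 (within strain) and 426 (15 N2 libraries); without 1 library they were 2 to 41. For 12 h against 6 h the block gave 1550, 1881 (within strain) and 2036 (15 N2 libraries), and spike-in scaling 0. For 24 h against 12 h the block over 15 N2 libraries gave 3434 and spike-in scaling 504, and for 24 h against 6 h spike-in scaling gave 2134. The 72 h against 24 h count of 1533 became 2580 (block within strain), 2326 (library size), 832 (no filter) and 3 (spike-in). The strain difference and the test of the last against the preceding 24 h stayed at 0 in every fit run. The library distance difference was -0.000266, and 0.00137 and -0.000708 with prior counts of 0.25 and 5.

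Under spike-in scaling the median gene lay at 0.99, with library size alone at -0.11 and with TMM at 0.01, so values under the first 2 are relative to the median gene; before that, 31 of the named genes had the other sign under the spike-in. Values near 0 changed sign. daf-2 (0.13) gave -0.073 to 0.31 (without single libraries or pairs). hsp-12.6 (-0.060) gave 0.049 (spike-in scaling), 0.018 (6 libraries, replicate block, without number 2), -0.26 to 0.074 (without single libraries or pairs). mtl-1 (0.061) gave -0.20 (spike-in scaling), -0.024 (6 libraries, replicate block), -0.020 (6 libraries, replicate block, DESeq2 size factors), -0.032 (6 libraries, replicate block, upper quartile scaling), -0.22 (6 libraries, replicate block, without number 2), -0.030 (6 libraries, replicate block, without number 3), -0.047 (6 libraries, replicate block, filterByExpr on the 6 libraries), -0.028 (12 libraries, replicate block), -0.012 (limma-voom, replicate block), -0.023 (DESeq2, replicate block), -0.24 to 0.28 (without single libraries or pairs). pck-1 (-0.13) gave 0.0019 (6 libraries, replicate block, without number 2), -0.50 to 0.14 (without single libraries or pairs). pck-2 (-0.13) gave 0.033 (spike-in scaling), -0.26 to 0.051 (without single libraries or pairs). pdp-1 (-0.19) gave -0.35 to 0.033 (without single libraries or pairs). List medians relative to the median gene also changed sign. TCA cycle and pyruvate dehydrogenase (-0.0086) gave 0.0053 (spike-in scaling), -0.059 to 0.0098 (without single libraries or pairs). Fatty acid synthesis, desaturation and elongation (-0.054) gave 0.065 (spike-in scaling), -0.13 to 0.040 (without single libraries or pairs). Glyoxylate cycle and gluconeogenesis (-0.11) gave 0.025 (spike-in scaling). Hypodermis and seam (-0.075) gave 0.13 (spike-in scaling), -0.21 to 0.058 (without single libraries or pairs). Insulin-like peptides (-0.035) gave 0.015 (replicate block), -0.28 to 0.21 (without single libraries or pairs). Nuclear hormone receptors (0.045) gave -0.013 to 0.10 (without single libraries or pairs). Small heat-shock proteins and hsf-1 (0.021) gave -0.044 (spike-in scaling), -0.18 to 0.35 (without single libraries or pairs). Trehalose and glycerol metabolism (-0.061) gave 0.0032 (spike-in scaling), -0.088 to 0.0049 (without single libraries or pairs).

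With 8321683 to 10209988 counts a library and 3 libraries a time, the 95% interval of a typical gene of at least 2 CPM was ±0.48 on the log2 scale, so smaller changes were not detectable gene by gene with this spread between libraries. Spike-in scaling rests on a share of 0.441% to 3.20% of counts that differed between libraries of 1 time.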
